A study of Homo sapiens with 8 samples.

Results

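The genes described are 35 genes of glycolysis and of the response to low oxygen, chosen by name and not by a cutoff on measured values, with earlier results of these data known, out of 33791 genes with counts. They are 17 enzymes of glycolysis and lactate formation, 3 regulators of glycolytic flux, 4 glucose and lactate transporters and 11 hypoxia-response genes, and all 35 passed the filter on low counts that kept 14653 genes for testing. RNA was sequenced from PNT2, a human prostate epithelial line that has been immortalized and is grown with serum, in 4 groups of 2 libraries (replicates A and B) that share this parental line. The groups were parental cells (WT), cells labelled *ERF* KD (short hairpin RNA against *ERF*, puromycin selection), cells labelled *CIC* KO (Cas9 with a guide against *CIC*, blasticidin selection), and cells with both, *ERF* KD + *CIC* KO. *ERF* and *CIC* encode transcriptional repressors, and the study asked what their joint loss does in prostate cells. The labels of these libraries name neither a control hairpin or guide nor a change of oxygen or glucose, so the effect of a vector or of drug selection cannot be told apart from that of the gene targeted. In bulk RNA, fewer cells of a kind and less RNA per cell cannot be told apart either. What a replicate letter stands for is not stated, and the p-values measure only the spread between these libraries.

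Glycolysis splits glucose into pyruvate in the cytosol. Lactate dehydrogenase then turns pyruvate into lactate, or pyruvate dehydrogenase sends it into the mitochondria. When oxygen falls, prolyl hydroxylases stop marking the HIF alpha subunits for destruction, and HIF raises most genes of glycolysis together with genes of blood vessel growth, pH control, mitophagy and collagen modification. HIF binds a short element with the core RCGTG in promoters and enhancers. Proliferating cells in culture often run glycolysis at a high rate even with oxygen present, and mRNAs of the pathway are commonly abundant in them. One of them, *GAPDH*, is widely used as the endogenous control of RT-qPCR and was the control in this study.

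Library totals ran from 19477473 to 25813157 estimated counts. Levels between libraries are given as counts-per-million values (CPM, scaled by TMM), and *ERF* was at 55.8 and 55.9 CPM in WT and 81.2 and 77.7 under the label *ERF* KD. It was 18.8 and 11.7 under the label *CIC* KO, and 11.6 and 10.4 in *ERF* KD + *CIC* KO. The knockdown target was therefore lower than in WT under the label of the *CIC* knockout (log2 value of *ERF* -1.87 ± 0.211, edgeR adjusted p 0.248, and 0.0477 with the replicate letter as a block) and higher under its own label (0.51 ± 0.201, 0.161), and the files of both single-loss groups are named the other way round from their labels. The labels were kept, each single-loss group is called by its label throughout, and no change given for a single-loss group can be assigned to the loss of a particular gene. The luminal keratins *KRT8* and *KRT18* and the epithelial gene *EPCAM* had counts in every library. *KLK3* was the only 1 of 5 secretory luminal genes at 0, and their sum was 16.6 to 24.6 CPM. Under the label *ERF* KD, 4 of 5 luminal genes (*CDH1*, *EPCAM*, *KRT18* and *KRT19*) were called lower than in WT (edgeR). So were 2 of 3 basal genes tested (*KRT5* and *KRT14*) and *TMPRSS2* of the secretory list. The luminal sum was 1629 and 2086 CPM there and 3652 to 4863 elsewhere. The basal sum was 17.6 and 24.3 CPM there and 97.0 to 368 elsewhere. In the libraries labelled *ERF* KD, 9 of 10 epithelial junction genes fell and 5 of 11 mesenchymal genes rose (1 fell). Over all genes tested, 10.1% were called in either direction between labelled *ERF* KD and WT. The summed junction genes were at 378 and 391 CPM there against 1884 to 2153 in the other 6 libraries. The summed mesenchymal genes (3489 and 4309 CPM) lay within the range of WT (3329 and 4348), but a sum weighs abundant genes most. The median log2 change of the 11 mesenchymal genes was 1.58, with 9 values above 0 and 2 below. The part of this shift in the values given for the labelled *ERF* KD libraries was not tested.

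Promoter sequences were matched by symbol to a RefSeq table (GRCh38.p14, 1 or more start sites per gene), which held 30 of the 35 genes. *SLC2A3*, *SLC16A1*, *VEGFA*, *NDRG1* and *BNIP3L* were the other 5. The 250 bases before each start were searched on both strands for the HIF core (ACGTG or GCGTG). At least 1 start had a match in 24 of the 30 genes, and 47.4% of all genes in the table had one. Counted by window, 57.9% of 57 windows of these genes and 43.2% of all 35116 windows held the core, and for ACGTG alone the shares were 36.8% and 18.5%. CACGTG, which reads the same on both strands and counts as an overlapping pair of cores, was in 14.0% of the windows of these genes and 6.35% of all. Printed here are the stretches around the core in *GAPDH* and in the genes that were called in a comparison and have a core before a start. They are written 5′ to 3′ on the gene's own strand with the core in capitals, and CACGC or CACGT in capitals is a core read on the other strand. A match is a description of letters and not of binding.
PFKP, first start with a core (chr10:3069025-3069079, plus strand): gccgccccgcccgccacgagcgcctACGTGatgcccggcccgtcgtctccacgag
PFKP, second start with a core (chr10:3104523-3104608, plus strand): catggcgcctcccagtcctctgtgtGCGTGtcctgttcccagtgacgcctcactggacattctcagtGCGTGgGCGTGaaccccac
PFKFB3, first start (chr10:6144728-6144782, plus strand): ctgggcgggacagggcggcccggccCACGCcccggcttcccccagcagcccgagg
PFKFB3, second start (chr10:6202799-6202854, plus strand): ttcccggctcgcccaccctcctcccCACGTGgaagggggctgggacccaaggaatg
PFKFB4 (chr3:48556953-48556981, minus strand): tgagttgggcatGCGTGgtcggaggccgg
CA9 (chr9:35673898-35673926, plus strand): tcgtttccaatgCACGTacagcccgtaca
ADM (chr11:10304960-10304988, plus strand): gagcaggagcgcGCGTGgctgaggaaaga
GAPDH (chr12:6535158-6535213, plus strand): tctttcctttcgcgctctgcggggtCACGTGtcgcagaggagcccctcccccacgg
The core began 18 bases before the start in *CA9*, 101 in *ADM*, 166 in *PFKFB4* and 139 in the first window of *PFKP*. The second window of *PFKP* had 3 cores, between 61 and 13 bases before the start. *GAPDH* and the second start of *PFKFB3* had the overlapping pair CACGTG. The stretches of *CA9* and *ADM* overlap an annotated GENCODE 29 exon. No core was found in the window of *EGLN3*, which says only that these letters are not in that window.

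Levels of different genes were compared as transcripts-per-million values (TPM), which take transcript length into account. In WT the 17 enzymes spanned from 23.0 TPM for *PFKM* to 7867 ± 1851 TPM (SD, n = 2) for *GAPDH*. *GAPDH* stood above every other gene of the 35, at 6558 and 9176 TPM. *ENO1*, an enolase, was second at 1849 and 2378 TPM, and *LDHA*, the lactate dehydrogenase subunit favoured in glycolytic cells, came next at 1354 and 2253 TPM. Within each WT library *ENO1* was above *LDHA*, and *LDHA* above *ALDOA* (1137 and 1858 TPM) and *PKM* (1278 and 1696 TPM). *ALDOA* and *PKM* changed places between the 2 libraries, so their order was not resolved. Over the 2 libraries the ranges of *LDHA* and *ALDOA* overlapped each other and those of *ENO1* and *PKM*. *ENO1* lay above *PKM* without overlap, and *GAPDH* overlapped none of them. *TPI1* followed at 891 ± 171 TPM and *LDHB* at 680 ± 48.0 TPM. *PGK1*, which makes ATP in the step after *GAPDH*, was 17th of the 35 genes at 88.5 ± 21.5 TPM. Some annotated transcripts of these genes are absent from the transcript list of the files, so a gene's level can be too low, whereas its comparison between libraries uses the same transcripts throughout.

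Among isoenzymes, the phosphofructokinase of platelets, *PFKP*, was at 224 ± 19.1 TPM in WT, against 106 ± 14.5 TPM for the liver form *PFKL* and 23.0 ± 0.571 TPM for the muscle form *PFKM*. The ubiquitous hexokinase *HK1* was at 63.9 ± 2.06 TPM and the inducible *HK2* at 30.8 ± 9.64 TPM. The aldolase *ALDOC* and the enolase *ENO2*, known mainly from neurons, were at 25.5 ± 2.77 and 33.6 ± 1.11 TPM. *SLC2A1*, the basal glucose carrier GLUT1, led the transporters at 295 ± 34.9 TPM. The lactate carriers *SLC16A3* and *SLC16A1* were at 170 ± 19.1 and 142 ± 9.17 TPM, and *SLC2A3*, the high-affinity glucose carrier GLUT3, was at 71.3 ± 35.3 TPM. The hypoxia-response genes ran from 4.63 TPM for *ANKRD37* to 91.9 TPM for *BNIP3*.

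**Figure D1:**
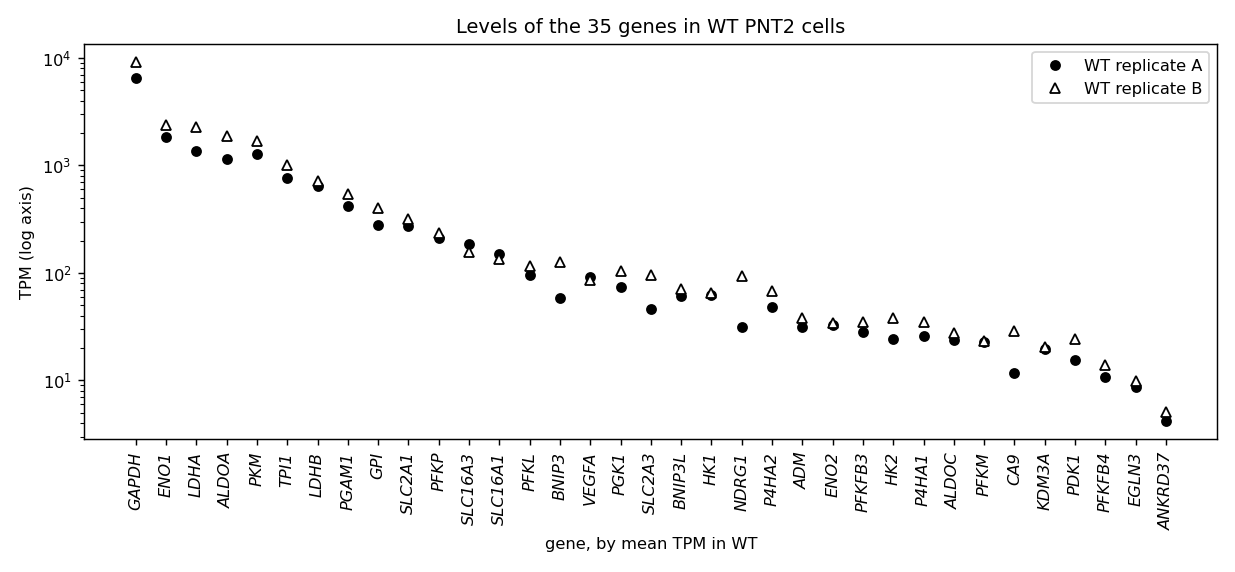
TPM (log axis) of the 35 genes in the 2 WT libraries, ordered by their mean, with replicate A as filled circles and replicate B as open triangles. *GAPDH* stands alone at 6558 and 9176 TPM, and *ANKRD37* is lowest at 4.16 and 5.10 TPM. Below *GAPDH*, *LDHA* and *ALDOA* overlap both *ENO1* and *PKM*, whereas *ENO1* lies above *PKM* without overlap.

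The pyruvate kinase gene *PKM* carries a pair of mutually exclusive exons of 167 bases on chromosome 15, at 72203022 to 72203188 for the muscle form PKM1 and at 72202454 to 72202620 for PKM2, the form of proliferating cells (GRCh38, minus strand). Transcripts with the PKM2 exon held between 98.1% and 98.8% of the TPM of the pair in all 8 libraries. A single transcript, PKM-202, made up 88.6% to 93.0% of *PKM*. HK1-202 was 87.4% to 98.1% of *HK1*, and HK2-201 was 71.8% to 89.8% of *HK2*, with HK2-202 most of the rest. *SLC2A1* was split between SLC2A1-203 (60.3% to 65.6%) and SLC2A1-201 (32.7% to 37.1%) in each library. *LDHA* came from LDHA-203 (38.6% to 52.1%), LDHA-206 (24.5% to 32.4%) and LDHA-221 (14.7% to 25.8%). *ALDOA* came mostly from ALDOA-206 (24.2% to 30.2%), ALDOA-213 (26.5% to 35.1%) and ALDOA-214 (21.6% to 26.5%), of which only the first is annotated as protein coding.

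*GAPDH* came mostly from GAPDH-204 (53.5% to 66.5% of its TPM) and GAPDH-201 (17.7% to 25.5%), with GAPDH-205 and GAPDH-202 below 14% each. For *PFKFB3*, the share of PFKFB3-203 was 59.6% and 56.7% in the libraries labelled *ERF* KD, above the 33.1% to 55.2% of the other 6. PFKFB3-205 held 13.6% and 23.2% there and 22.0% to 47.7% elsewhere, which overlap. *VEGFA* was spread over 7 transcripts of at least 10% in some group, 4 of them annotated as retained introns. The coding transcript VEGFA-206 was at 19.1% and 22.7% of *VEGFA* in the labelled *ERF* KD libraries, and 12.1% to 15.5% in the others. These shares are estimates from reads divided between overlapping transcripts and were not tested.

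Several of these genes have processed pseudogenes that share sequence with them. The 61 annotated copies of *GAPDH* together took at most 0.0290% of the reads of gene and copies, and those of *PGAM1* at most 0.817%. The 39 copies of *BNIP3* took 15% to 19.1%. *BNIP3* levels are uncertain to that degree, and its change between groups was nearly the same with the copies added (log2 change in the labelled *ERF* KD libraries -0.19 with copies and -0.17 without, both from mean log2 CPM).

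The libraries labelled *ERF* KD were first set against WT, and a change there cannot be assigned to the loss of a particular gene. *PFKP* and *ADM* rose, *SLC2A3*, *VEGFA* and *EGLN3* fell, and the remaining 30 did not pass the test (edgeR, adjusted p under 0.05). The 5 calls are 14.3% of the 35 genes, beside 10.1% of all genes tested in this comparison. The median log2 change of the 35 was -0.19, against 0.0058 for all genes, and 26 of 35 values were negative. With the letter added as a replicate block, 11 of the 35 passed, 3 up and 8 down, beside 18.2% of all genes. Levels in labelled *ERF* KD did not overlap those in WT for 42.9% of the 35 and 56.3% of all genes tested. Set against labelled *CIC* KO the shares without overlap were 40.0% and 49.1%, and against *ERF* KD + *CIC* KO 45.7% and 53.4%.

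*EGLN3*, a prolyl hydroxylase that marks HIF alpha subunits and is itself a HIF target, lies on chromosome 14 at 33924231 to 34462774 (GRCh38, minus strand). It was at 10.1 and 12.4 CPM in WT, 1.49 and 1.24 in labelled *ERF* KD, 9.20 and 14.5 in labelled *CIC* KO, and 10.2 and 9.52 in *ERF* KD + *CIC* KO. Both labelled *ERF* KD libraries stood far below all 6 others, which overlapped each other. The log2 change against WT was -3.04 ± 0.306 (SE), an 8.2-fold lower level, with an edgeR adjusted p of 0.00071, and the call held under all 17 alternatives.

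*VEGFA*, the growth factor of blood vessels, lies on chromosome 6 at 43770184 to 43786487 (plus strand). Its levels were 140 and 137 CPM in WT, 69.1 and 66.6 in the labelled *ERF* KD libraries, 159 and 164 in the labelled *CIC* KO libraries, and 131 and 103 in *ERF* KD + *CIC* KO. The labelled *ERF* KD libraries were lowest and did not overlap any other group. *VEGFA* was 2.04-fold lower there than in WT (log2 change -1.03 ± 0.142, edgeR adjusted p 0.00334, and 0.0504 for TPM with limma at a pseudocount of 0.1).

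*ADM* encodes adrenomedullin, a peptide that widens vessels. It was at 27.8 and 40.6 CPM in WT, 74.5 and 93.0 in the labelled *ERF* KD libraries, 38.2 and 79.9 in the labelled *CIC* KO libraries, and 55.6 and 49.5 in *ERF* KD + *CIC* KO. It thus moved opposite to *VEGFA* and *EGLN3* in the labelled *ERF* KD line (log2 change 1.29 ± 0.330, edgeR adjusted p 0.0443). That call was lost when any 1 library of WT, of labelled *ERF* KD or of *ERF* KD + *CIC* KO was left out (adjusted p 0.0744 to 0.249), and also when TPM were tested with limma at a pseudocount of 0.1 (0.0570).

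*CA9*, a carbonic anhydrase of the cell surface that acidifies the surroundings of hypoxic cells, was at 11.4 and 31.5 CPM in WT. Its levels were 7.90 and 6.78 CPM in the labelled *ERF* KD libraries, 21.9 and 30.9 in the labelled *CIC* KO libraries, and 6.20 and 9.61 in *ERF* KD + *CIC* KO. The 2 groups with low *CA9* lay below both WT libraries, which themselves lay far apart. The log2 change in the labelled *ERF* KD line was -1.55 ± 0.450, with an edgeR adjusted p of 0.0685, which the replicate block took to 0.0221. The value of *CA9* was -2.11, and passed, when WT replicate A was left out, and -0.64 (adjusted p 0.396) when replicate B was.

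Of the other hypoxia-response genes, *NDRG1* had a log2 value of -1.52 ± 0.647 with an adjusted p of 0.190, and its libraries varied most (52.3 and 164 CPM in WT, 49.8 and 25.5 in labelled *ERF* KD). *BNIP3*, a receptor of mitophagy, was at 36.8 and 84.2 CPM in WT, 40.9 and 60.4 in labelled *ERF* KD, 49.6 and 138 in labelled *CIC* KO, and 56.8 and 105 in *ERF* KD + *CIC* KO. *P4HA2*, a collagen prolyl hydroxylase subunit, was at 57.1 and 95.1 CPM in WT, 68.7 and 78.2 in labelled *ERF* KD, 84.9 and 136 in labelled *CIC* KO, and 90.4 and 116 in *ERF* KD + *CIC* KO. In either case the spread within a group was wider than the distance between labelled *ERF* KD and WT. *P4HA1*, the histone demethylase *KDM3A*, the mitophagy receptor *BNIP3L* and *ANKRD37* had log2 values between -0.34 and 0.18, and none passed.

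**Figure D2:**
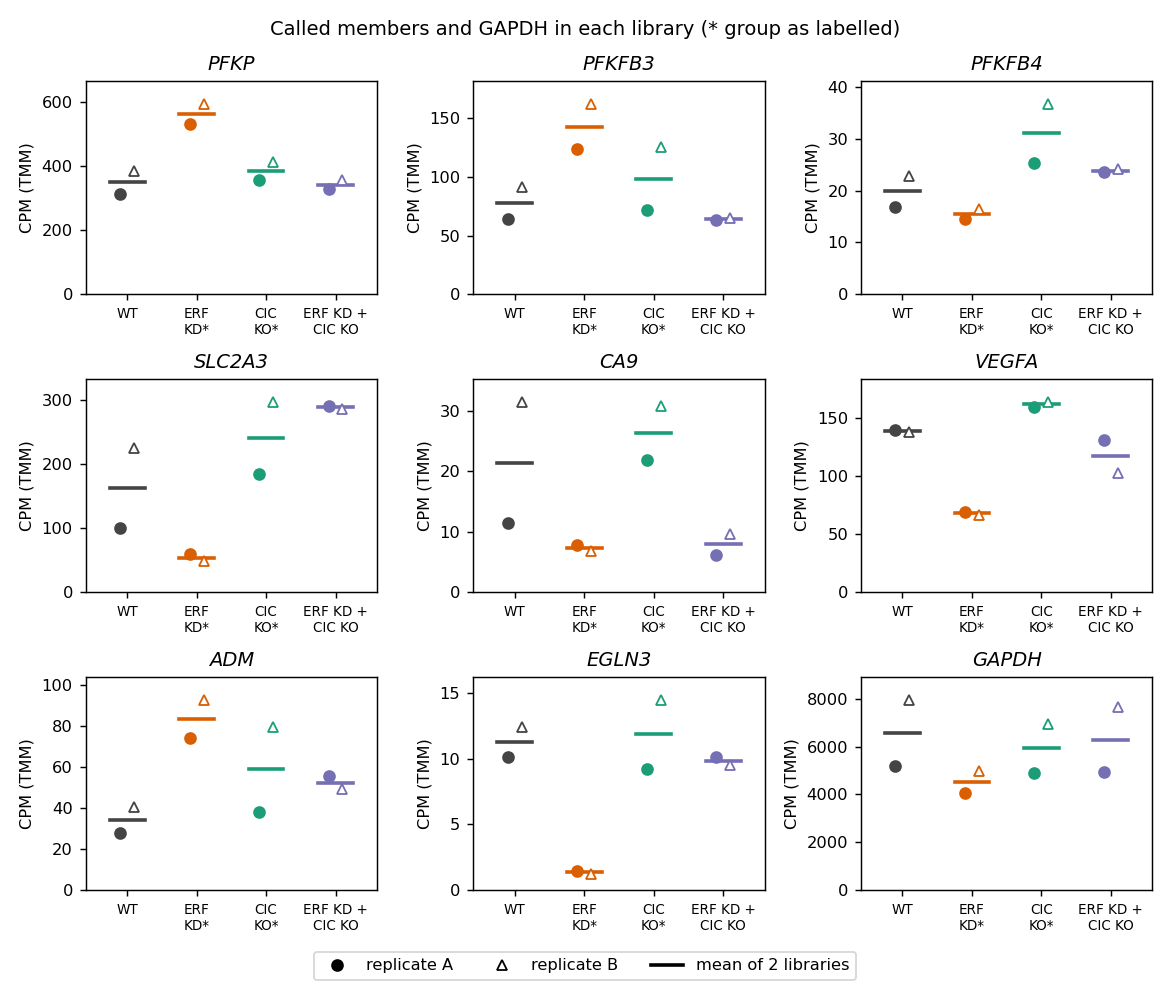
CPM, scaled by TMM, of the 8 genes called in at least 1 comparison and of *GAPDH*, in each library (filled circles replicate A, open triangles replicate B, bars the mean of 2 libraries, axes from 0). *EGLN3* is at 1.49 and 1.24 CPM in the libraries labelled *ERF* KD and between 9.20 and 14.5 CPM in the other 6.

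Among the transporters, *SLC2A3* (chromosome 12 at 7919230 to 7936275, minus strand) was at 100 and 224 CPM in WT, 58.9 and 48.1 in the labelled *ERF* KD libraries, 184 and 297 in the labelled *CIC* KO libraries, and 291 and 286 in *ERF* KD + *CIC* KO. The labelled *ERF* KD libraries were lowest, and the WT libraries lay far apart. The log2 change was -1.60 ± 0.366 against WT (edgeR adjusted p 0.0295). Without WT replicate B it was -0.90 with an adjusted p of 0.139, and the call was also lost without either labelled *ERF* KD library or either *ERF* KD + *CIC* KO library (0.0539 to 0.139), with only the groups compared (0.0512) and with limma at pseudocounts of 1 and 0.1 (0.0585 and 0.0895).

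*SLC2A1* was at 408 and 532 CPM in WT, 340 and 318 in labelled *ERF* KD, 404 and 534 in labelled *CIC* KO, and 381 and 477 in *ERF* KD + *CIC* KO. The labelled *ERF* KD libraries lay below the other 6. Its log2 value was -0.51 ± 0.199 (edgeR adjusted p 0.154, and 0.0429 with the block). *SLC16A1*, the lactate carrier MCT1, was at 235 and 247 CPM in WT, 167 and 190 in labelled *ERF* KD, 237 and 293 in labelled *CIC* KO, and 208 and 231 in *ERF* KD + *CIC* KO. It too was lowest in labelled *ERF* KD, with a log2 value of -0.44 ± 0.149 (adjusted p 0.111, and 0.0230 with the block). *SLC16A3*, the lactate exporter MCT4, had a value of 0.41 ± 0.156 with an adjusted p of 0.148.

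In the first part of glycolysis, *PFKP* (chromosome 10 at 3066333 to 3137712, plus strand), a subunit of the phosphofructokinase that commits sugar to the pathway, was at 315 and 384 CPM in WT. It was at 532 and 595 CPM in the labelled *ERF* KD libraries, 358 and 414 in the labelled *CIC* KO libraries, and 328 and 358 in *ERF* KD + *CIC* KO. The labelled *ERF* KD libraries stood above the other 6, which overlapped. *PFKP* was 1.61-fold higher than in WT (log2 change 0.69 ± 0.156, edgeR adjusted p 0.0281). That call was lost when any 1 library of WT or labelled *ERF* KD was left out (adjusted p 0.0594 to 0.232), with log2 values of 0.55 to 0.84. It was also lost with only the groups compared (0.0518) and with limma at a pseudocount of 0.1 (0.0607).

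*PFKFB3* and *PFKFB4* make and break down the sugar phosphate that activates phosphofructokinase. *PFKFB3* was at 63.8 and 91.8 CPM in WT, 124 and 162 in labelled *ERF* KD, 71.8 and 125 in labelled *CIC* KO, and 63.5 and 64.8 in *ERF* KD + *CIC* KO. Its log2 value in labelled *ERF* KD was 0.88 ± 0.278, with an edgeR adjusted p of 0.0894 and 0.00812 with the block. *PFKFB4* was at 16.9 and 22.9 CPM in WT, 14.5 and 16.4 in labelled *ERF* KD, 25.3 and 36.7 in labelled *CIC* KO, and 23.5 and 24.2 in *ERF* KD + *CIC* KO. The pair thus had values of opposite sign in labelled *ERF* KD, where *PFKFB4* was at -0.36 ± 0.225 (adjusted p 0.369).

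*PDK1*, a kinase that shuts off pyruvate dehydrogenase, was at 29.2 and 49.5 CPM in WT, 22.9 and 28.5 in labelled *ERF* KD, 33.4 and 67.0 in labelled *CIC* KO, and 24.2 and 41.7 in *ERF* KD + *CIC* KO. Replicate B was above replicate A in all 4 groups. The log2 value in labelled *ERF* KD was -0.62 ± 0.393 (edgeR adjusted p 0.385, and 0.0484 with the block).

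Of the 16 other enzymes, none passed in this comparison without the block, and their log2 values ran from -0.54 for *GAPDH* to 0.43 for *PFKM*. *ENO1* was at 1994 and 2801 CPM in WT, 2161 and 2529 in labelled *ERF* KD, 2219 and 3205 in labelled *CIC* KO, and 2350 and 2686 in *ERF* KD + *CIC* KO. *LDHA* was at 1010 and 1940 CPM in WT, 929 and 1314 in labelled *ERF* KD, 1166 and 2253 in labelled *CIC* KO, and 1307 and 2265 in *ERF* KD + *CIC* KO. The 4 groups of either enzyme overlapped, and replicate B was the higher library of each group.

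*ALDOA*, the aldolase that splits the sugar, was at 641 and 1115 CPM in WT, 592 and 795 in labelled *ERF* KD, 762 and 1171 in labelled *CIC* KO, and 756 and 1183 in *ERF* KD + *CIC* KO. *TPI1*, which interconverts the resulting triose phosphates, was at 497 and 722 CPM in WT, 473 and 553 in labelled *ERF* KD, 505 and 796 in labelled *CIC* KO, and 623 and 802 in *ERF* KD + *CIC* KO. The same pattern of a higher replicate B held for these genes. *PGK1* was at 67.3 and 115 CPM in WT, 67.4 and 87.6 in labelled *ERF* KD, 86.3 and 152 in labelled *CIC* KO, and 73.9 and 120 in *ERF* KD + *CIC* KO. *PKM* was at 1767 and 2641 CPM in WT, 1725 and 2132 in labelled *ERF* KD, 1705 and 2706 in labelled *CIC* KO, and 2431 and 2837 in *ERF* KD + *CIC* KO.

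**Figure D3:**
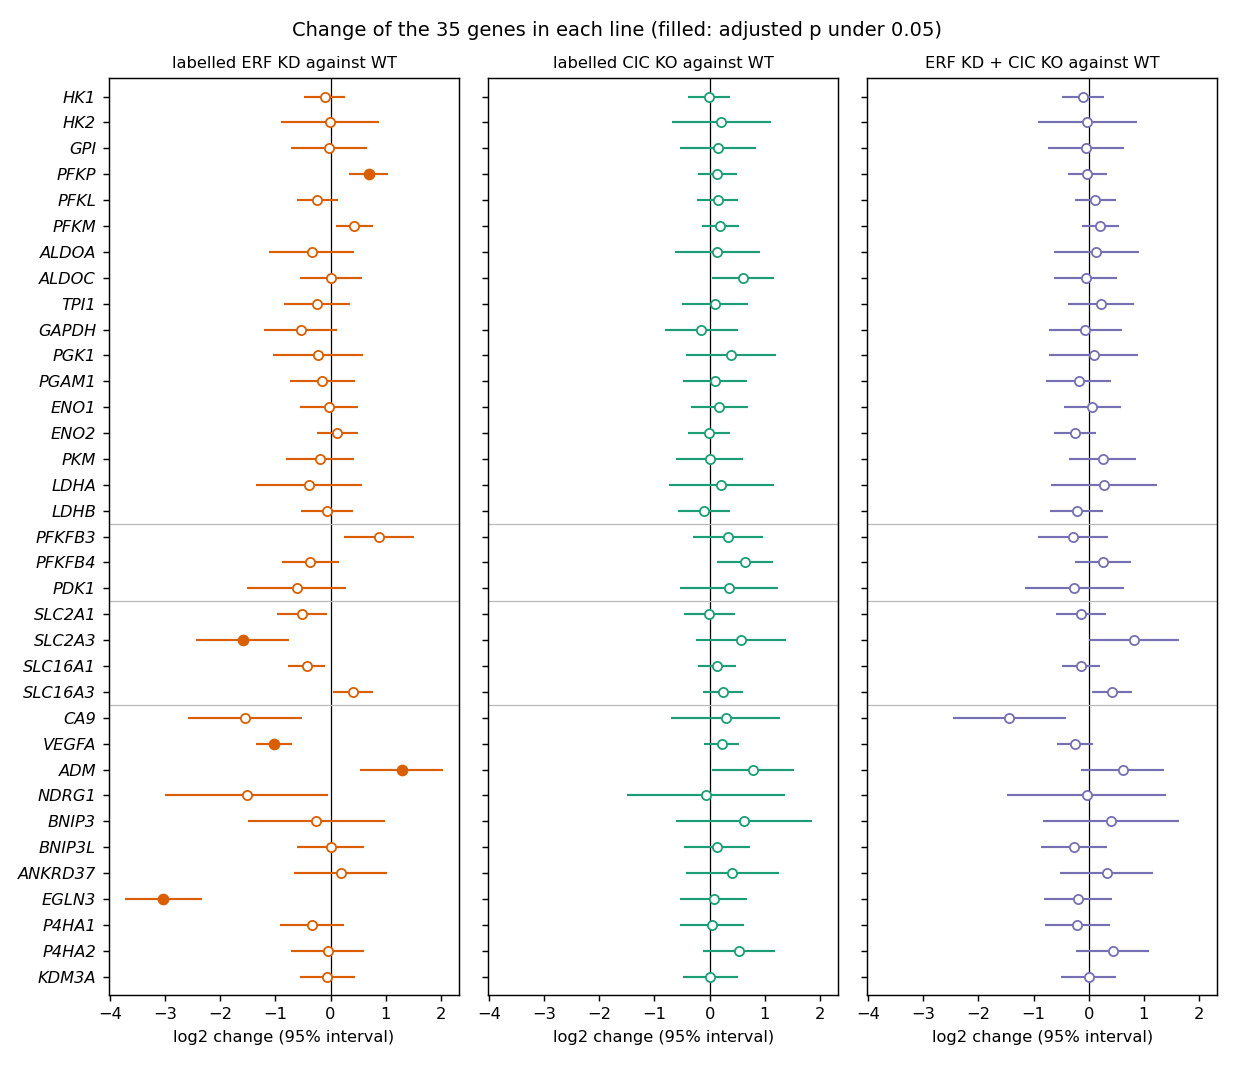
The log2 change of each of the 35 genes against WT with its 95% interval (edgeR, horizontal axis), by line, with grey lines between enzymes, flux regulators, transporters and hypoxia-response genes; filled points have an adjusted p under 0.05. Filled points appear only for *PFKP*, *SLC2A3*, *VEGFA*, *ADM* and *EGLN3* in the labelled *ERF* KD panel.

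In the libraries labelled *CIC* KO, none of the 35 genes passed against WT (edgeR), and 3 had an unadjusted p under 0.05. The test called 0.0% of all genes in this comparison (0 of 14653, with 587 at an unadjusted p under 0.05), and DESeq2 called 26 genes, none of them among the 35. The median log2 value of the 35 genes was 0.15, with 29 of 35 above 0, against a median of 0.012 over all genes. The 3 genes with an unadjusted p under 0.05 were *ALDOC* (log2 0.62 ± 0.245), *PFKFB4* (0.64 ± 0.223) and *ADM* (0.79 ± 0.328), each with an adjusted p of 0.9997. *EGLN3* was at 0.07, with a 95% interval from -0.54 to 0.69, and *VEGFA* at 0.22, from -0.10 to 0.54. *SLC2A3* was at 0.57, from -0.25 to 1.39, and *CA9* at 0.30, from -0.69 to 1.29.

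In *ERF* KD + *CIC* KO, likewise, none of the 35 passed against WT (edgeR), 3 had an unadjusted p under 0.05, and the test called 0.0682% of all genes. DESeq2 called *CA9* alone of the 35 and 439 genes in all. The median log2 value of the 35 was -0.027, against 0.0018 over all genes. *CA9* had the lowest value, -1.44 ± 0.449 (edgeR adjusted p 0.236, 0.0768 with the block, and a value of -1.99 when WT replicate A was left out and -0.53 when replicate B was), and *SLC2A3* the highest, 0.83 ± 0.357 (adjusted p 0.370). The other gene with an unadjusted p under 0.05 was *SLC16A3*, at 0.43 ± 0.156. *EGLN3* was at -0.19, with a 95% interval from -0.81 to 0.42, which does not reach the value of the labelled *ERF* KD line. *PFKP* was at -0.027, from -0.38 to 0.33, and *VEGFA* at -0.25, from -0.57 to 0.08.

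The 2 single-loss lines were compared directly, which asks whether their levels differ. In labelled *ERF* KD, 5 of the 35 genes were lower than in labelled *CIC* KO and none was higher (edgeR), which is 14.3% of the genes beside 9.4% of all genes. The 5 were *EGLN3* (log2 difference -3.11 ± 0.307, adjusted p 0.000589), *SLC2A3* (-2.17 ± 0.372, 0.00882), *CA9* (-1.85 ± 0.452, 0.0394), *VEGFA* (-1.25 ± 0.143, 0.00124) and *PFKFB4* (-1.0 ± 0.225, 0.0278). *SLC2A3* lost its call only without labelled *ERF* KD replicate B among the libraries left out (adjusted p 0.0577). *CA9* lost it without any 1 of the 6 libraries other than WT (0.0568 to 0.156), with length-scaled counts (0.0618) and with limma at pseudocounts of 1 and 0.1 (0.0771 and 0.118). *PFKFB4* lost it without any of those 6 except labelled *CIC* KO replicate A (0.0505 to 0.135), with length-scaled counts (0.175), with only the groups compared (0.0666) and with limma (0.190 and 0.232). With the block, 14 of the 35 passed, beside 16.5% of all genes, 13 of them lower in labelled *ERF* KD. The added genes were *ALDOA*, *PGK1*, *LDHA*, *PDK1*, *SLC2A1*, *SLC16A1*, *BNIP3* and *P4HA2* among the lower ones, and *PFKP* was the higher one.

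*ERF* KD + *CIC* KO was then compared with labelled *ERF* KD. Of the 35 genes, 3 were higher in *ERF* KD + *CIC* KO and 2 lower (edgeR), 14.3% beside 11.7% of all genes. *EGLN3* was 7.18-fold higher (log2 difference 2.84 ± 0.305, adjusted p 0.000872), *SLC2A3* 5.39-fold (2.43 ± 0.375, 0.00520) and *VEGFA* 1.72-fold (0.78 ± 0.142, 0.0102). *PFKP* (-0.72 ± 0.156, 0.0222) and *PFKFB3* (-1.15 ± 0.280, 0.0338) were lower. The calls of *PFKP* and *PFKFB3* were lost without labelled *ERF* KD replicate B or either *ERF* KD + *CIC* KO library (0.0735 to 0.167). That of *VEGFA* was lost without labelled *ERF* KD replicate B or *ERF* KD + *CIC* KO replicate A (0.0573 and 0.0594), and with limma at either pseudocount (0.136 and 0.167). With the block, 11 of the 35 passed, 9 of them higher in *ERF* KD + *CIC* KO, beside 20.6% of all genes, and *GAPDH*, *ALDOA*, *TPI1*, *PKM*, *LDHA* and *PFKFB4* joined the higher ones.

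Against labelled *CIC* KO, no gene of the 35 passed in *ERF* KD + *CIC* KO (edgeR), with 3 at an unadjusted p under 0.05 and 0.0% of all genes called. DESeq2 called *CA9* alone of the 35, and 141 genes in all. These contrasts share libraries with each other and with the comparisons against WT, so their values are not independent.

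The interaction term asks if the joint change departs from the sum of the single-loss changes, and does not depend on which single-loss label is which. It passed for 1 of the 35 genes, *EGLN3* (log2 2.77 ± 0.403, edgeR adjusted p 0.00870, and 0.0830 and 0.0831 with limma at pseudocounts of 1 and 0.1), which is 2.86% beside 4.15% of all genes. With the block it passed for 5, beside 9.55% of all genes. The other 4 were *SLC2A3* (1.82 ± 0.421, adjusted p 0.0307 with the block and 0.0945 without), *PFKP* (-0.86 ± 0.144, 0.00765 and 0.0778), *PFKFB3* (-1.45 ± 0.238, 0.00709 and 0.0838) and *ADM* (-1.39 ± 0.342, 0.0392 and 0.145).

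The replicate letter itself was examined after the libraries had been seen, because replicate B was the higher library for so many of these genes. In a fit with the group and the letter as terms, 14 of the 35 genes were higher in B and none was lower (edgeR), 40.0% of the 35. Over all genes 4.22% were called in either direction, and 2.18% were called higher in B. The median log2 difference of B over A was 0.39 for the 35 genes and -0.0072 for all genes, and 33 of 35 values were above 0.

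Of the 14 genes called, 10 were enzymes, and all 17 enzymes had a value above 0. *LDHA* was 1.74-fold higher in B (log2 difference 0.80 ± 0.0927, adjusted p 0.00678), *PGK1* 1.59-fold (0.67 ± 0.0919, 0.0113) and *ALDOA* 1.54-fold (0.62 ± 0.0824, 0.00982). *GAPDH* was 1.43-fold higher (0.51 ± 0.0797, 0.0164). The other enzymes called were *GPI*, *TPI1*, *PGAM1*, *PKM*, *HK2* and *LDHB*, with values from 0.34 to 0.68. Outside the enzymes, *BNIP3* had the largest difference, 2.04-fold (1.03 ± 0.140, 0.0109), followed by *PDK1* (0.72 ± 0.118, 0.0195), *P4HA2* (0.49 ± 0.105, 0.0417) and *KDM3A* (0.36 ± 0.0825, 0.0488). *VEGFA* and *SLC16A3* were the 2 genes with values below 0.

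Replicate B exceeded A in all 4 groups for 20 of the 35 genes (57.1%), and for 15.3% of all genes tested. The median difference of the 35 genes was 0.54 in WT, 0.53 in labelled *CIC* KO, 0.32 in *ERF* KD + *CIC* KO and 0.20 in labelled *ERF* KD, against -0.0036 to 0.0051 over all genes. The calls depended on the libraries in the fit. None of the 35 passed without the labelled *CIC* KO libraries, where 0% of all genes passed. Without the WT libraries 5 passed, beside 2.3% of all genes. *LDHB* was called under 3 of 17 alternatives and *KDM3A* under 2. The differences themselves ran from 0.46 to 0.59 for *GAPDH* and from 0.70 to 0.90 for *LDHA* over all alternatives. Summed marker genes were also higher in B in each group for the luminal (3652 and 4397 CPM in WT), basal (151 and 256), mesenchymal (3329 and 4348) and blood lists (15.1 and 43.5). For the letter, 2 of 5 luminal genes (*KRT8* and *KRT19*) and 2 of 3 basal genes tested were called higher in B, and of 11 mesenchymal genes 2 were higher and 2 lower. Of the 2 blood genes tested, *CD68* was called (1.52 ± 0.132, edgeR adjusted p 0.00324) and *PTPRC* had a value below 0 (-0.23 ± 0.371, 0.766). The endothelial sum was lower in B in each group (12.6 and 7.95 CPM in WT), and 1 of 3 endothelial genes, *CDH5*, was called lower in B. None of the 10 epithelial junction genes was called for the letter. The part of the marker genes in the difference was not tested.

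**Figure D4:**
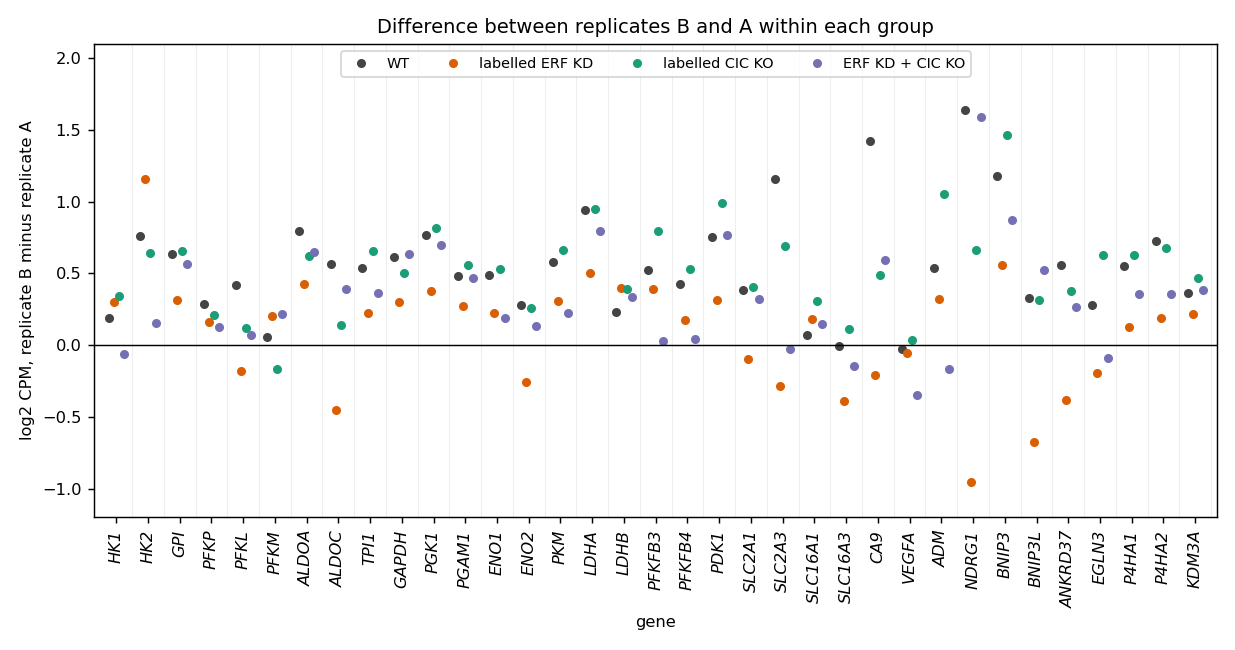
Difference in log2 CPM between replicate B and replicate A within each group, for each of the 35 genes (points above 0 are higher in B). The points of *LDHA*, *PGK1*, *ALDOA*, *GAPDH* and *BNIP3* are above 0 in all 4 groups, whereas those of *VEGFA* and *SLC16A3* are at or below 0 in 3 of 4.

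*GAPDH* itself, on chromosome 12 at 6533927 to 6538374 (plus strand), was at 5190 and 7952 CPM in WT, 4049 and 4976 in labelled *ERF* KD, 4903 and 6960 in labelled *CIC* KO, and 4923 and 7643 in *ERF* KD + *CIC* KO. The labelled *ERF* KD libraries did not overlap the WT libraries, which held for 56.3% of all genes tested and 42.9% of the 35. They did overlap the other 2 groups, and those groups overlapped WT. The log2 value against WT was -0.54 ± 0.290 in labelled *ERF* KD (95% interval -1.21 to 0.12, edgeR adjusted p 0.297). With the replicate letter as a block it was -0.51 ± 0.113 with an adjusted p of 0.0155. It was -0.82 when WT replicate A was left out and -0.20 when replicate B was. It was -0.15 in labelled *CIC* KO (interval -0.81 to 0.51), and -0.065 (-0.73 to 0.60) with both losses, and these 2 values were 0.19 and 0.28 without WT replicate B. *GAPDH* took between 0.407% and 0.794% of the gene counts of a library.

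Of 19 genes widely used as RT-qPCR references, *GAPDH* had the fourth widest range over the 8 libraries, 0.97 on the log2 scale. *POLR2A* (1.88, at a mean of 2.44 CPM), *B2M* (1.24) and *PGK1* (1.18) were wider, and *SDHA* (0.28), *IPO8* (0.30), *YWHAZ* (0.32) and *PPIA* (0.36) were narrowest. None of the 19 passed in any of the 7 comparisons between groups (edgeR) without the block. With it, among the genes named here, *GAPDH*, *GUSB* and *B2M* were lower in labelled *ERF* KD than in WT, *GAPDH* and *B2M* were higher in *ERF* KD + *CIC* KO than in labelled *ERF* KD (*GAPDH* at an adjusted p of 0.0246), and *PGK1* was lower in labelled *ERF* KD than in labelled *CIC* KO (0.0185). *B2M* also passed in the interaction. For the letter, *PGK1*, *TFRC*, *GAPDH* and *RPLP0* were higher in B.

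**Figure D5:**
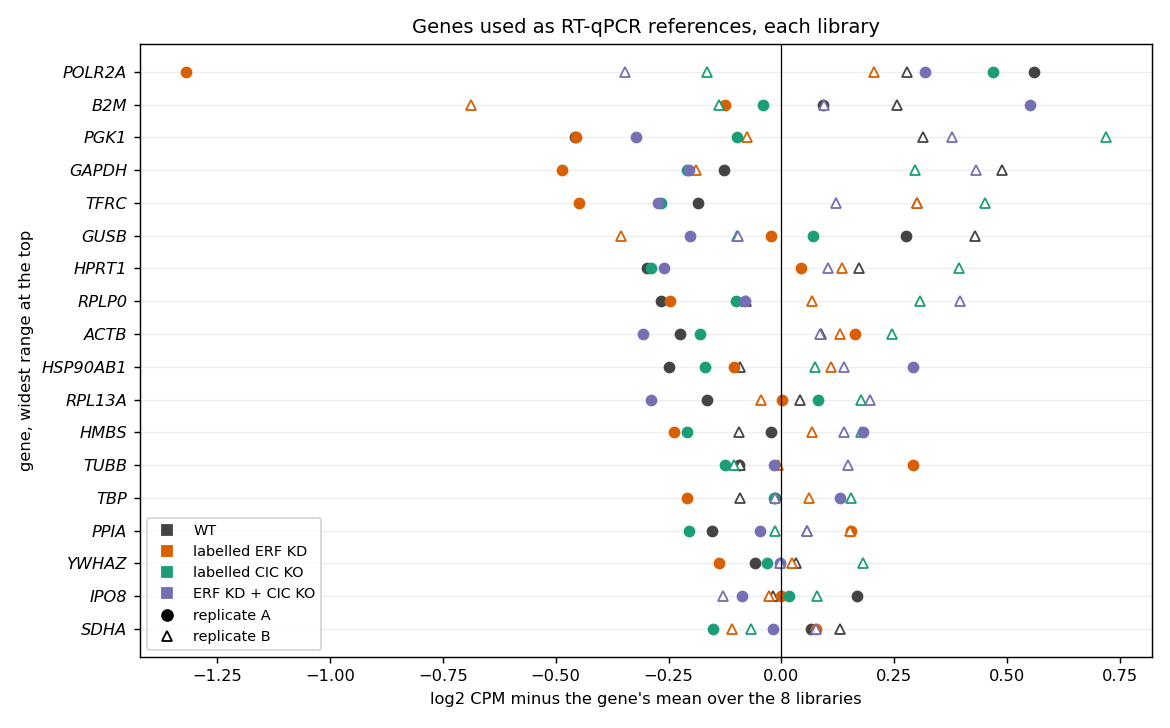
Each library's log2 CPM minus the gene's mean over the 8 libraries, for 18 of the 19 genes used as RT-qPCR references, ordered by range (colours are groups, filled circles replicate A, open triangles replicate B). *GAPDH* spans 0.97 with all 4 replicate A libraries below its mean, and *SDHA* spans 0.28.

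A value given relative to *GAPDH* adds the size of its own shift, which was computed as a description with no test and, as given above, rests on which WT library is in the fit. In labelled *ERF* KD, *ETV1* was at a log2 change of 2.38 with TMM scaling and 2.92 relative to *GAPDH*, *ETV5* at 1.95 and 2.49, and *ETV4* at 1.51 and 2.05. Relative to the other 18 reference genes *ETV1* ranged from 2.14 (*TUBB*) to 3.17 (*POLR2A*), with a median of 2.40. *ERF* in the same libraries was at 0.51 with TMM scaling and 1.05 relative to *GAPDH*, and *CIC* at -0.24 and 0.30, so that the sign for *CIC* depended on the scaling. In *ERF* KD + *CIC* KO the shift was small, with *ETV4* at 1.61 and 1.67 and *ERF* at -2.34 and -2.28. In labelled *CIC* KO, *ERF* was at -1.87 and -1.72. The log2 difference of *GAPDH* between replicates, 0.51, was close in size to its shift in labelled *ERF* KD.

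Other genes of the pathway were taken from lists chosen by name. Among 14 genes of oxygen sensing and the HIF subunits, only *CITED2*, which competes with HIF for its coactivator, passed in labelled *ERF* KD against WT, which is 7.14% beside 10.1% of all genes. It was at 82.5 and 111 CPM in WT and 202 and 184 in labelled *ERF* KD (log2 change 1.0 ± 0.169, edgeR adjusted p 0.00830). *HIF1A* (0.31 ± 0.196, adjusted p 0.377), *EPAS1* (0.41 ± 0.139, 0.106), *VHL* (-0.10 ± 0.152, 0.734) and *EGLN1* (0.064 ± 0.171, 0.861) did not pass, and *EPAS1* joined *CITED2* with the block. *CITED2* was also higher than in labelled *CIC* KO (0.84 ± 0.168, 0.0172).

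Of 26 other genes described as hypoxia targets, 3 fell and none rose in labelled *ERF* KD against WT, which is 11.5% beside 10.1% of all genes. With the block 9 passed, 4 up and 5 down, 34.6% beside 18.2%. The 3 were *BHLHE41* (12.3 and 14.9 CPM in WT, 6.24 and 3.92 in labelled *ERF* KD, log2 change -1.41 ± 0.269, edgeR adjusted p 0.0139) and *BHLHE40* (131 and 165, then 90.9 and 68.1, -0.90 ± 0.180, 0.0175), both repressors of the clock and of other genes, and *DDIT4* (146 and 209, then 91.9 and 69.9, -1.14 ± 0.296, 0.0479), an inhibitor of mTOR signalling. In *ERF* KD + *CIC* KO against labelled *ERF* KD, 3 rose and 2 fell, 19.2% beside 11.7% of all genes. With the block 11 passed, 42.3% beside 20.6%. *BHLHE40* rose (1.14 ± 0.180, 0.00565). *LOX*, which cross-links collagen, fell (-3.58 ± 0.561, 0.00554), from 44.5 and 44.2 CPM in labelled *ERF* KD to 1.90 and 5.64, as did *PPP1R3C*, a glycogen-targeting subunit (-1.77 ± 0.337, 0.0126). Against labelled *CIC* KO, labelled *ERF* KD had 1 higher (*LOX*) and 2 lower, *BHLHE40* and the adenylate kinase *AK4* (-1.08 ± 0.180, 0.00774). That is 11.5% beside 9.4% of all genes, and with the block 11 passed, 42.3% beside 16.5%. *LOX* was also the only gene of the list to pass in the interaction without the block, 3.85% beside 4.15% of all genes. With the block 7 passed, 26.9% beside 9.55%.

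Of 29 other genes of glucose use, 23 were tested. In labelled *ERF* KD against WT, 1 rose and 1 fell, 8.7% beside 10.1% of all genes. With the block 5 passed, 21.7% beside 18.2%. The glucose carrier *SLC2A12* fell (32.5 and 36.0 CPM in WT, 10.8 and 5.06 in labelled *ERF* KD, log2 change -2.10 ± 0.334, edgeR adjusted p 0.00626), and *SLC2A8*, an intracellular carrier, rose (15 and 17.8, then 28.8 and 33.8, 0.93 ± 0.166, 0.0103). Between *ERF* KD + *CIC* KO and labelled *ERF* KD, 3 of the 23 were called, 13.0% beside 11.7% of all genes. *PFKFB2*, 1 of these, was higher in *ERF* KD + *CIC* KO (0.75 ± 0.132, edgeR adjusted p 0.00923). Labelled *ERF* KD against labelled *CIC* KO gave 4, 17.4% beside 9.4%. With the block these comparisons gave 6 and 5, 26.1% beside 20.6% and 21.7% beside 16.5%. None of 7 pentose phosphate genes or 29 genes of pyruvate entry and the TCA cycle passed in the 7 comparisons between groups without the block. With it *TKT* and *SDHD* passed in labelled *ERF* KD against WT, *TKT*, *SDHD* and *PDHB* against labelled *CIC* KO, and *PDP1* was called in *ERF* KD + *CIC* KO relative to WT and to labelled *ERF* KD. In labelled *ERF* KD the median log2 value was 0.24 for the pentose phosphate genes and 0.14 for those of pyruvate entry and the TCA cycle. It was -0.11 for the 17 enzymes, and these medians were not tested. Among the enzymes, *ALDOA*, *TPI1*, *PGK1*, *ENO1*, *PKM* and *LDHA* had values above 0 when WT replicate B was left out.

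Of 10 genes of the integrated stress response, which shares *VEGFA* as a target with HIF, 2 fell and 1 rose in labelled *ERF* KD, 30% beside 10.1% of all genes. *TRIB3* (59.0 and 73.2 CPM in WT, 25.8 and 27.4 in labelled *ERF* KD, log2 change -1.31 ± 0.172, edgeR adjusted p 0.00258) and *SESN2* (-0.90 ± 0.217, 0.0360) fell, and *VLDLR* rose (0.88 ± 0.168, 0.0140). No gene of the lists of oxygen sensing, hypoxia targets, glucose use, pentose phosphate, TCA cycle or stress response passed against WT in the other 2 lines without the block. With it none passed in labelled *CIC* KO, and *ARNT2*, *BHLHE41*, *ZNF395*, *STC2* and *PDP1* passed in *ERF* KD + *CIC* KO.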

How the data were processed

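The authors deposited, for each library, estimated counts and TPM per transcript in kallisto's format; their methods name RSEM, the labels name the build hg19, and the annotation, strandedness and kallisto version are not given in the sources used here. Transcripts were joined by identifier to GENCODE 29 (153245 of 180253), estimated counts were summed per gene and rounded, and 93.2% to 93.3% of a library's counts lay on genes. Counts were scaled by TMM and tested in 1 fit of all 8 libraries with edgeR 4.0.16 (quasi-likelihood, filterByExpr, R 4.3.3), with Benjamini-Hochberg adjustment over 14653 genes. SE and 95% intervals come from that fit. An exact 2-sided permutation test of 2 against 2 cannot go below 0.333 and was not used. At the lowest depth 3 counts equal 0.169 CPM.

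The replicate letter was taken to pair the libraries, because deviations from the group means correlated for all 6 pairs of groups (r 0.136 to 0.335), although its meaning is not stated. The blocked value is given beside some of the results whose call the block changed, and not beside all. Replicates differed by more than sampling noise (chi-square per degree of freedom 21.5 to 43.1). The members and lists were chosen with earlier results of these data known. Values in every library are given for *GAPDH*, the 3 genes highest in WT and each gene called in any of 7 comparisons with or without the block (20 genes), and for other lists for up to 3 genes called per comparison. Genes of other lists named only for the block were chosen after their values were seen. Some results for genes of these lists are not reported here. Alternatives were DESeq2 1.42.0, other scalings, no filter, the block, length-scaled counts, limma 3.58.1 on log2(TPM + 1) and log2(TPM + 0.1), only the groups compared and each library left out.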

Additional observations from a re-analysis of the deposited data

Results flagged for a closer look

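Of the 35 genes, 7 were picked out because their levels or changes differed between the lines in a test of the difference itself, all from the same edgeR fit. Labelled *ERF* KD was lower than labelled *CIC* KO for *EGLN3* (log2 difference -3.11), *SLC2A3* (-2.17), *CA9* (-1.85), *VEGFA* (-1.25) and *PFKFB4* (-1.0). *ERF* KD + *CIC* KO was higher than labelled *ERF* KD for *EGLN3* (2.84), *SLC2A3* (2.43) and *VEGFA* (0.78) and lower for *PFKP* (-0.72) and *PFKFB3* (-1.15). The interaction passed for *EGLN3* (2.77), and did not with limma at a pseudocount of 1 or 0.1 (adjusted p 0.0830 and 0.0831). Both groups of contrasts use the labelled *ERF* KD libraries, in which 9 of 10 epithelial junction genes were called lower than in WT. Over all genes, 10.1% were called in that comparison in either direction. The part of the junction difference was not tested. With 2 libraries per group, no single library could be tested for standing apart from its group.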

How the results depend on the processing

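Limits are 2 libraries per group, labels that *ERF* mRNA goes against, and a replicate letter of unstated meaning. The comparison of the letters was run because B was seen to be higher. Its calls among the 35 were all lost without the labelled *CIC* KO libraries. Of the 5 calls in labelled *ERF* KD against WT, *EGLN3* was kept under all 17 alternatives and *VEGFA* under 16, whereas *PFKP*, *ADM* and *SLC2A3* were kept under 11, 10 and 9. The causes of the changes below were not tested.

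Counts of the 35 genes called are given in the order labelled *ERF* KD against WT, labelled *ERF* KD against labelled *CIC* KO, then *ERF* KD + *CIC* KO against labelled *ERF* KD, where they were 5, 5 and 5. With the replicate block they were 11, 14 and 11, beside 18.2%, 16.5% and 20.6% of all genes, and without a filter on low counts 11, 15 and 10, beside 11.6%, 10.7% and 12.6%. With limma on TPM they were 4, 3 and 4 at a pseudocount of 1, and 1, 3 and 4 at 0.1, beside 5.2% to 6.89% of all genes. Fitting only the groups compared gave 3, 4 and 5, length-scaled counts 5, 3 and 5, and DESeq2 7, 7 and 5, beside 5.87% to 9.13%, 7.25% to 8.4% and 12.9% to 15.8% of all genes. Without the filter, labelled *CIC* KO went from 0 to 1 against WT, beside 0.554% of all genes. The double-loss line went from 0 to 3 against WT without the filter, and to 1 with DESeq2, beside 3.46% and 3%. *ERF* KD + *CIC* KO against labelled *CIC* KO went from 0 to 2 and 1 in the same fits, beside 1.92% and 0.962%. The interaction went from 1 to 5 with DESeq2 or the block, beside 7.62% and 9.55% of all genes. Without the filter it went to 6, beside 7.41%. By library size or length-scaled counts it was 2, beside 3.92% and 3.05%. With limma at either pseudocount it was 0, beside 1.94% and 1.35%. The letter comparison went from 14 to 17 with DESeq2, 9 with length-scaled counts, 5 without the WT libraries and 0 without the labelled *CIC* KO libraries, where 9.23%, 2.21%, 2.3% and 0% of all genes were called. Those letter alternatives were chosen after seeing the data. The block changed no other count.

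Leaving out 1 library at a time leaves 1 library in a group, so for those fits only log2 values are given in this paragraph. Values that were not called changed sign as follows when 1 library was left out, most often WT replicate B. In labelled *ERF* KD the log2 values ranged from -0.69 to 0.12 for *ALDOA*, -0.50 to 0.050 for *TPI1*, -0.57 to 0.21 for *PGK1*, -0.26 to 0.24 for *ENO1*, -0.46 to 0.13 for *PKM*, -0.80 to 0.15 for *LDHA*, -0.74 to 0.46 for *BNIP3* and -0.38 to 0.36 for *P4HA2*. In labelled *CIC* KO they ranged from -0.43 to 0.19 for *GAPDH*, -0.12 to 0.69 for *PFKFB3*, -0.26 to 1.2 for *CA9* and -0.29 to 0.36 for *EGLN3*. In *ERF* KD + *CIC* KO they ranged from -0.16 to 0.13 for *PFKP*, -0.41 to 0.28 for *GAPDH* and -0.52 to 0.013 for *PFKFB3*. *EGLN3* in labelled *CIC* KO, 0.07, became -0.046 with length-scaled counts, and -0.11 and -0.13 with limma at pseudocounts of 1 and 0.1. *PFKFB4* in *ERF* KD + *CIC* KO, 0.26, became -0.027 and -0.029 with limma. With the 2 single-loss labels exchanged, the values of those lines exchange places, and the interaction does not change.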
